A study of Sus scrofa with 8 samples.

Results

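Active promoters bound by CTCF were examined in pig embryonic fibroblasts (PEFs). They were chosen by measured values: a protein-coding gene was kept where a peak lay within 1 kb of its annotated transcription start site (TSS) in all 6 peak lists, that is, 2 of H3K4me3, 2 of H3K27ac and 2 of CTCF. Of 19487 protein-coding genes on chromosomes 1 to 18 and X, 2809 met this rule. Both histone marks were present in all 4 histone lists at 11476 genes, called active promoters here, so that CTCF was found in both replicates at 24.5% of them. The other active promoters were 7842 without a CTCF peak within 1 kb in either replicate, which served for comparison, and 825 with CTCF in 1 replicate only. Among the 5365 genes with no histone peak in any of the 4 lists, 226 had CTCF in both replicates, or 4.21%, and over all 19487 genes the share was 17.9%. These shares are set by the rule and are given as a description.

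CTCF is a zinc finger protein that binds DNA at a long, asymmetric motif and halts cohesin, which extrudes loops of chromatin. Because the motif reads differently on each strand, a bound site has a direction, and loops form mainly between sites whose motifs face each other. H3K4me3 marks promoters, H3K27ac marks active promoters and enhancers, and CTCF at a promoter can place the gene at the foot of a loop.

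The PEFs were isolated from 35-day fetuses of Large White pigs and cultured without any treatment named in the labels. Each mark was profiled by ChIP-seq in 2 replicates (6 libraries in all), and the peaks were called in each library. The sources do not say how many fetuses stand behind a replicate, so that the spread between replicates may be technical. With 2 replicates, the smallest p of an exact sign-flip test is 0.5, and no test was run: each value is given per replicate, with its spread. All 10 fibroblast markers examined, among them VIM, THY1, PDGFRA and COL1A1, had both histone marks in all 4 lists. None of the 4 endothelial, 4 blood or 4 muscle markers did, although MYF5, MYOD1 and MYOG of muscle, ESAM of endothelium and SPI1 of blood had a peak in some of the lists. CLDN4 of the epithelial, SNAP25 of the neuronal and APOA1 of the liver markers also carried both marks, and their part in the results was not tested.

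The CTCF motif was learned from CTCF peaks more than 5 kb from the 5′ end of any annotated gene. Other mRNA starts were not excluded. The most frequent base of the motif at each of 19 positions reads:

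CTCF motif: TGGCCACTAGAGGGCGCTA

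read on the other strand: TAGCGCCCTCTAGTGGCCA

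The sites below show the direction of the motif at bound promoters. Each is printed on the strand of its gene, 5′ to 3′, from the Sscrofa11.1 genome, with the motif in capitals and 5 flanking bases on each side in lower case. In the first 8, the motif reads along the gene, with a core such as CCAGCAGGGGGC or CCACCAGAGGGC pointing towards the TSS and the gene. The first is 225 bp upstream of DHX8 and the others between 32 and 127 bp upstream of their TSS:

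DHX8, minus strand, chr12:19582301-19582329: ctcccTGGCCAGTAGAGGGCGCCAgccag

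PSMC6, plus strand, chr1:182328974-182329002: caagcGGACCAGCAGGGGACAGTGtggcc

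NDUFC1, plus strand, chr8:87695209-87695237: gcctcCGCCCGCCAGGGGGCGCTCggccc

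SF3A3, minus strand, chr6:93976342-93976370: accccCGGCCAGCAGGGGGCACTGcagcc

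NBN, plus strand, chr4:46787605-46787633: tttccTAACCACCAGGTGGCGACCaggcg

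MRPL11, plus strand, chr2:5978329-5978357: ctccgTGTCCAGCAGATGGCGCTCcagga

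ATP5I, minus strand, chr8:113618-113646: cccttTGGACACCAGGGGGCAGGGcactg

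LTBP2, minus strand, chr7:97852954-97852982: cgccaAGTCCACCAGAGGGCGCGCtccct

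In the next 5, the motif reads against the gene, so that its reverse complement appears on the gene's strand:

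FMO4, plus strand, chr9:63908756-63908784: tgactTGGCGCCCTCTAACGGCTAcgagg

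ERLIN2, minus strand, chr15:48662718-48662746: gtcacGGGCGCCCTCTGGCGGCAAtcctc

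MRPL34, minus strand, chr2:60379015-60379043: cgttcTCCTGCCACCTGCTGGTCCatctg

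LTBP4, plus strand, chr6:48830908-48830936: gcgggCAGCGCCCCCTGGCGGCGCggggc

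COL1A1, minus strand, chr12:26396020-26396048: gggtgGCCCGCCACCTAGTGGCCGcctgg

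The first 4 of these lie between 62 and 96 bp upstream of the TSS, and the COL1A1 site lies 1146 bp downstream, in an intron. The whole stretch from the motif to the base before the TSS is short at such promoters. It is shown for PSMC6, which encodes a proteasome ATPase, for TBC1D4, which encodes a regulator of glucose transporter traffic, and for ERLIN2, which encodes a protein of the endoplasmic reticulum:

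PSMC6, plus strand, chr1:182328974-182329069: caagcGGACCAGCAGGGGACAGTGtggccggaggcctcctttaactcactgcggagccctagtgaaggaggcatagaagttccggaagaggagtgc

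TBC1D4, minus strand, chr11:47760929-47761004: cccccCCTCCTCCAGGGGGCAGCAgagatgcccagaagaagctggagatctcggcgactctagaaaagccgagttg

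ERLIN2, minus strand, chr15:48662649-48662746: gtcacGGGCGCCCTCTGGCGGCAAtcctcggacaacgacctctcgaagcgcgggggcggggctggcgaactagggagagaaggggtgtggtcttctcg

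The motif reads along the gene at PSMC6 and TBC1D4 and against it at ERLIN2. No annotated gene overlaps these stretches.

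The first question was how strongly CTCF was bound at these promoters. Fold enrichment is the height of a peak's summit over the control, as the peak caller gave it, and the highest CTCF peak within 1 kb was taken for each gene. Its median over the 2809 promoters was 17.0 in replicate 1 (quartiles 8.66 and 26.3) and 21.3 in replicate 2 (quartiles 10.6 and 32.4). CTCF peaks more than 5 kb from any TSS had medians of 19.98 (31321 peaks) and 19.5 (34537 peaks). The 2 sets were not chosen alike, since the promoters needed CTCF in both replicates and the distal peaks are all those of 1 list. When promoters were chosen from 1 replicate alone, their medians were 16.7 in replicate 1 and 16.2 in replicate 2, below the distal medians in both. The 226 genes with no histone mark also needed CTCF in both replicates, and their medians were 21.2 and 21.6. Across promoters, the replicates ranked the sites alike, with a Spearman's rho of 0.943 over 2809 genes, which are not independent of each other. At 2264 promoters the fold was higher in replicate 2. The summits of the 2 replicates lay within 50 bp of each other at 2495 promoters, or 88.8%. Where CTCF was found in 1 replicate only, its peaks were weak, with median folds of 4.63 in the 69 genes of replicate 1 and 5.03 in the 756 genes of replicate 2. Whether they bind CTCF in the other replicate below the calling threshold was not tested.

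**Figure D1:**
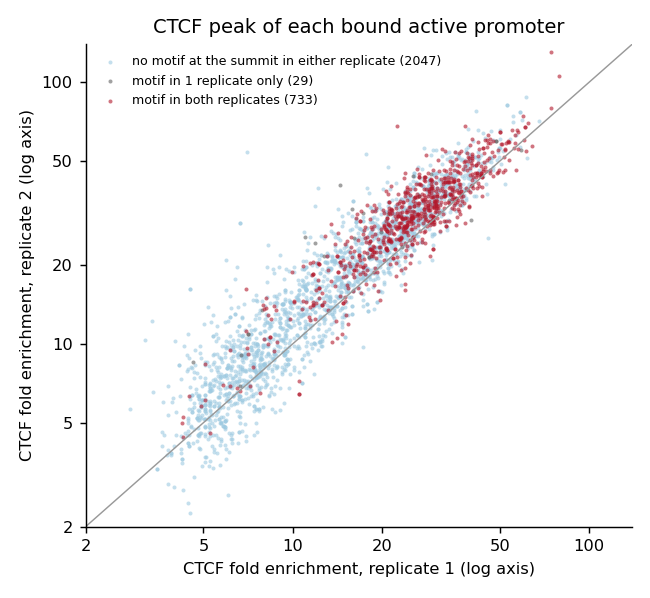
CTCF fold enrichment of the highest peak within 1 kb of the TSS in replicate 1 (x axis, log) and replicate 2 (y axis, log), 1 point for each of 2809 bound active promoters, with the line of equal values. Sites with a CTCF motif at the summit in both replicates (733, red) gather at high fold, and sites without one in either (2047, blue) fill the whole range.

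The promoters with the highest CTCF fold belonged to genes that differ in known function. DHX8, an RNA helicase of the spliceosome, had 74.5 and 131 in replicates 1 and 2, with the summit 242 and 279 bp upstream. FMO4, a flavin-containing monooxygenase, had 79.3 and 106 at 115 and 112 bp upstream. IFN-DELTA-7, annotated as an interferon gene, had 74.3 and 79.9, with the summit 77 and 88 bp upstream. Its H3K4me3 was short, covering 897 and 1081 bp within 5 kb of the TSS. KDM3B, a histone H3K9 demethylase, had 61.2 and 88.1 at 208 and 212 bp upstream, with no motif that passed the threshold at either summit. CCDC83 had 59.97 and 74.5 at 242 and 279 bp downstream, in an intron. The others among the 10 highest were LOC100738822 (67.7 and 70.9) and 2 pairs of genes that share a peak, SMPD4 with LOC100153925 (58.3 and 76.9) and C4H8orf59 with LOC100152714 (52.7 and 82.0).

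At the other end, fold values were below the medians of the peaks found in 1 replicate only. SFT2D2, a vesicle transport protein, had 3.79 and 2.90, RUSC2 had 4.50 and 2.26, and STX2, a syntaxin of membrane fusion, had 3.99 and 2.85. GSTCD and INTS12, a subunit of the Integrator complex that processes small nuclear RNAs, start 12 bp apart on opposite strands and share a peak of 3.49 and 3.33. None of these 5 had a motif at the summit in either replicate.

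Genes can share a CTCF peak, so the promoters are not independent sites. The 2809 genes had 2532 distinct best peaks in replicate 1 and 2530 in replicate 2, and 550 and 554 genes shared theirs with another gene of the set. More than 1 CTCF peak within 1 kb was found at 88 and 112 genes, among them ACBD4 and PLCD3, KIRREL, TOMM5 and MMP25, each with 2 peaks in both replicates. ACBD4 and PLCD3 lie on opposite strands and share a site of 60.7 and 67.2, whose motif reads along ACBD4 and against PLCD3. KIRREL, a cell adhesion protein, had 54.8 and 65.5 at 1214 and 1196 bp upstream.

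The second question was where CTCF sat relative to the TSS and the histone marks. The rule fixes only that a peak edge lies within 1 kb, not on which side. The summit was upstream of the TSS at 1625 promoters in replicate 1 and 1627 in replicate 2, which gives a mean share of 57.9% with an SD of 0.0503 (n = 2). The share was alike, 57.5% in both replicates, at the 226 genes with CTCF but no histone mark. The first 100 bp upstream held 9.29% and 8.85% of the summits at those genes, compared with 14.6% and 15.6% at bound promoters. At bound promoters the densest stretch was the first 100 bp upstream, which held 409 and 438 summits, against 202 and 198 in the first 100 bp downstream. Summits thinned to 164 and 157 per 100 bp between 100 and 500 bp upstream, and to 103 and 102 per 100 bp between 100 and 500 bp downstream. At 12.3% and 12.9% of the promoters the summit lay beyond 1 kb, because distance was measured to the edge of the peak. By annotation, 57.8% and 57.9% of the summits were upstream of the gene, 23.9% and 24.2% in an exon and 17.98% and 17.6% in an intron.

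Upstream sites were stronger than downstream sites. The median fold of summits 0 to 100 bp upstream was 24.5 and 29.96, compared with 14.8 and 17.8 for those 0 to 100 bp downstream and 11.9 and 15.2 for those 100 to 500 bp downstream. Summits more than 1 kb upstream were nearly as strong as those next to the TSS, with medians of 23.8 and 27.7. The share of summits upstream rose with fold, from 45.1% and 44.02% in the lowest of 4 equal groups by fold to 74.1% and 75.8% in the highest. EIF3G, a translation initiation factor, had 42.4 and 51.1 at 37 and 38 bp upstream. SNRPD1, a core protein of spliceosomal snRNPs, had 46.8 and 51.4 at 37 and 42 bp upstream, and PDS5B, a cohesin regulator, had 41.5 and 77.5 at 10 and 12 bp upstream. APP, the amyloid precursor gene, whose promoter is known to bind CTCF in other mammals, had 21.4 and 26.5 at 18 bp upstream in both replicates.

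CTCF lay within the marked chromatin at most of these promoters. The summit was inside an H3K4me3 peak at 93.9% ± 0.302 and inside an H3K27ac peak at 86.8% ± 0.831 of them (SD, n = 2). The rule requires such peaks near the TSS but not that they cover CTCF. At comparison promoters, the TSS was inside an H3K4me3 peak at 94.9% in both replicates. It was inside an H3K27ac peak at 91.1% and 91.9% of them. At 500 bp upstream, H3K4me3 covered 80.3% and 82.7% of comparison promoters, while H3K27ac covered 73.3% and 73.6%. At 1 kb upstream, the shares were lower, 43.9% and 47.5% (H3K4me3) and 40.2% and 39.8% (H3K27ac). Whether CTCF summits lay in marked chromatin more often than their position alone gives was not tested.

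**Figure D2:**
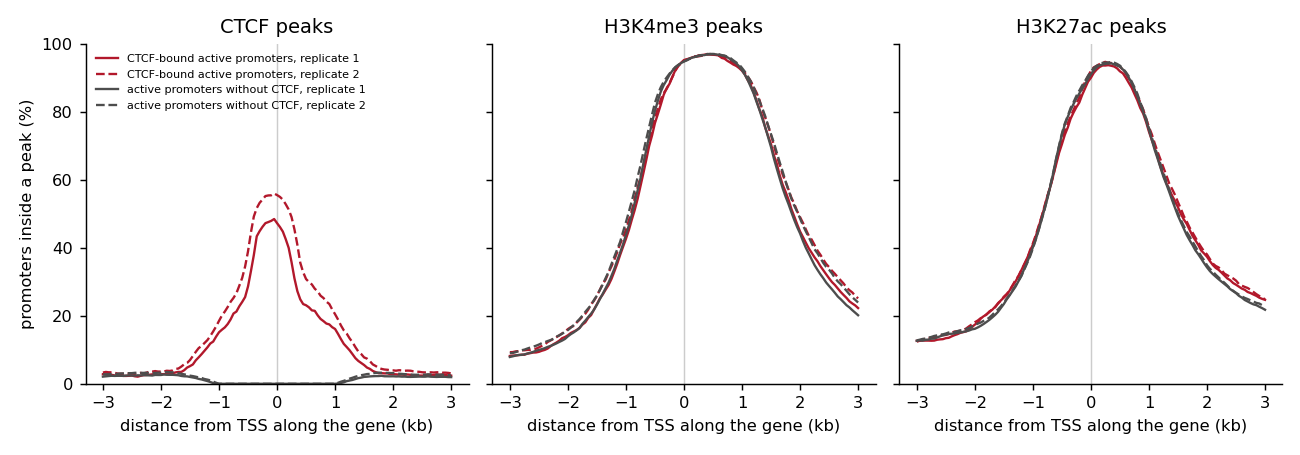
Share of promoters inside a peak (y axis, %) at each distance from the TSS along the gene (x axis, kb, in steps of 50 bp), for 2809 CTCF-bound active promoters (red) and 7842 active promoters without CTCF (grey), with replicate 1 solid and replicate 2 dashed. The share of promoters inside a CTCF peak was highest 50 bp upstream of the TSS (48.5% and 56.0%), and the H3K4me3 and H3K27ac curves of the groups lie almost on each other.

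With all bound promoters pooled, the medians of the histone marks were nearly the same with and without CTCF. The median H3K4me3 fold was 55.4 and 26.4 at bound promoters and 55.5 and 27.1 at the comparison promoters. For H3K27ac it was 16.6 and 19.8 compared with 16.8 and 19.9. H3K4me3 peaks covered a median of 3144 and 3299 bp within 5 kb of the TSS at bound promoters and 3122.5 and 3334.5 bp at comparison promoters. The difference, 21.5 bp in replicate 1 and -35.5 bp in replicate 2, had opposite signs in the replicates and was smaller than their spread (-7 ± 40.3 bp, SD, n = 2). H3K27ac covered 2940 and 2998 bp compared with 2856.5 and 2902.5 bp, a difference of 89.5 ± 8.49 bp (SD, n = 2). That difference was larger than the spread but turned to -77 bp when peaks were required within 500 bp, and so depended on the distance limit. Covered length also differed by CTCF fold. H3K4me3 covered 3370 and 3588 bp in the lowest of the 4 groups by fold and 2809 and 2976 bp in the highest. H3K27ac covered 3021 and 3077 bp in the lowest and 2633 and 2780 bp in the highest, without a steady fall between them. For both marks the comparison medians lay between these ends.

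Within the bound promoters, the marks reached further on the side where CTCF sat. CTCF lay more than 250 bp upstream in both replicates at 817 promoters, within 250 bp at 1107, more than 250 bp downstream at 788, and in differing classes at 97. Upstream of the TSS, H3K4me3 covered medians of 1248 and 1323 bp where CTCF was upstream, 785 and 847 bp where it was near the TSS and 891.5 and 936 bp where it was downstream, compared with 985.5 and 1055 bp at comparison promoters. H3K27ac upstream of the TSS gave the same order, with 1251 and 1268 bp, 772 and 768 bp, 868 and 906.5 bp, and 948 and 959 bp. Downstream of the TSS, H3K4me3 was longest where CTCF was downstream, with 2105 and 2185 bp, and shortest where it was near the TSS, with 1811 and 1934 bp. Each of these orders held in both replicates.

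The position of the mark's highest point also differed between these groups of promoters. The H3K27ac summit was upstream of the TSS at 42.4% and 41.0% of promoters with CTCF upstream, but at 20.9% and 19.5% with CTCF near the TSS and 23.5% and 21.8% with CTCF downstream. At comparison promoters the share was 28.6% and 26.8%. For H3K4me3 the corresponding shares were 24.7% and 25.2%, 12.5% and 15.2%, 14.8% and 17.5%, and 16.9% and 19.8%. Whether the marks follow CTCF or CTCF the marks cannot be told apart from these lists. The part of divergent neighbours and of other mRNA starts in these groups was not tested.

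Of the 5 bound promoters with the longest H3K4me3, counted up to the window of 10001 bp, 3 were of HOX genes. HOXA5 and HOXA6 lie in the same stretch of H3K4me3, with folds of 59.3 and 26.7 at both. HOX genes without CTCF were not compared for length. HOXA5, a homeobox gene of axial patterning, was covered by both marks over the whole window of 10001 bp in both replicates, with a CTCF fold of 38.1 and 44.1 at 317 and 303 bp downstream, in an exon. HOXA6 was also covered over the whole window by both marks, with CTCF of 22.9 and 25.9 at 607 and 593 bp upstream. PCDH7, a protocadherin of cell adhesion, had H3K4me3 over the whole window and CTCF of 16.9 and 27.5. FOXF1, a forkhead factor of mesenchyme, had H3K4me3 over the whole window but weak CTCF, of 5.36 and 4.49. HOXC5 had 10001 and 9118 bp of H3K4me3 and CTCF of 25.9 and 39.0 at 366 and 359 bp upstream, where the motif reads along the gene.

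The third question was what sequence lay under CTCF. A motif that passed a p of 1e-05 per position lay within 100 bp of the summit at 745 promoters in replicate 1 and 750 in replicate 2, a mean share of 26.6% with an SD of 0.126 (n = 2). At the 1e-05 threshold the motif was present at 55.6% and 52.4% of distal CTCF peaks, but at 0.565% and 0.443% of positions 1 kb away from them. It was found within 100 bp of the TSS at 24 of 7842 comparison promoters, or 0.306%. Within 1 kb of the TSS, wherever the summit was, 708 bound promoters (25.2%) and 190 comparison promoters (2.42%) held it. The bound promoters thus held a motif less often than distal sites in both lists. The contrast with the comparison promoters rests on the CTCF peaks that formed the groups and is a description. With a looser p of 1e-04, the shares were 55.7% and 56.7% at bound promoters and 80.1% and 77.9% at distal peaks. Genes with CTCF but no histone mark were like distal sites, with a motif at 59.7% and 60.6% of 226.

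The motif share rose with CTCF fold. It was 4.56% and 4.27% in the lowest of the 4 groups by fold, 14.7% and 15.95% in the second, 35.7% and 37.7% in the third and 51.1% and 48.8% in the highest. Distal peaks within the fold limits of each group had 25.4% and 25.6%, 44.9% and 49.5%, 64.2% and 67.3%, and 75.5% and 75.9%. At like fold, promoter sites were below distal sites in every group and in both replicates. Here too the motif came from strong distal peaks, and the part of that choice in the difference was not tested. The share also differed by position: 35.9% and 33.6% of summits 0 to 100 bp upstream held a motif, compared with 15.3% and 18.7% of those 0 to 100 bp downstream. The highest shares, 47.8% and 46.5%, were at summits more than 1 kb upstream, and beyond 1 kb downstream they were 24.7% and 26.1%. With rising fold the promoters also became slightly less GC-rich, with a median GC content within 500 bp of the TSS of 63.5% and 62.8% in the lowest group and 59.9% and 60.4% in the highest. The part of base composition in the motif share was not tested.

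The direction of the motif relative to the gene depended on its position. Over all motif-bearing promoters, 449 of 745 motifs in replicate 1 and 450 of 750 in replicate 2 read along the gene, or 60.3% and 60%. In the first 100 bp upstream, 116 of 154 and 119 of 155 did so, or 75.3% and 76.8%. Between 100 and 500 bp upstream the share was 68.5% and 68.2%, of 178 and 179 motifs. Further from the TSS the shares were close to equal: 48.6% and 47.7% between 500 and 1000 bp upstream, 52.8% and 50% between 100 and 500 bp downstream, and 49.3% and 50% between 500 and 1000 bp downstream. In the first 100 bp downstream, with only 31 motifs, the share was 54.8% in both replicates. With the looser threshold of 1e-04 it was 63.8% and 62.5% there, of 94 and 96 motifs. That was close to the 63.4% and 63.8% between 100 and 500 bp upstream at the same threshold. Both replicates were searched in the same genome, and 726 of the 733 motifs found in both are the same site, so that their likeness is not independent evidence.

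**Figure D3:**
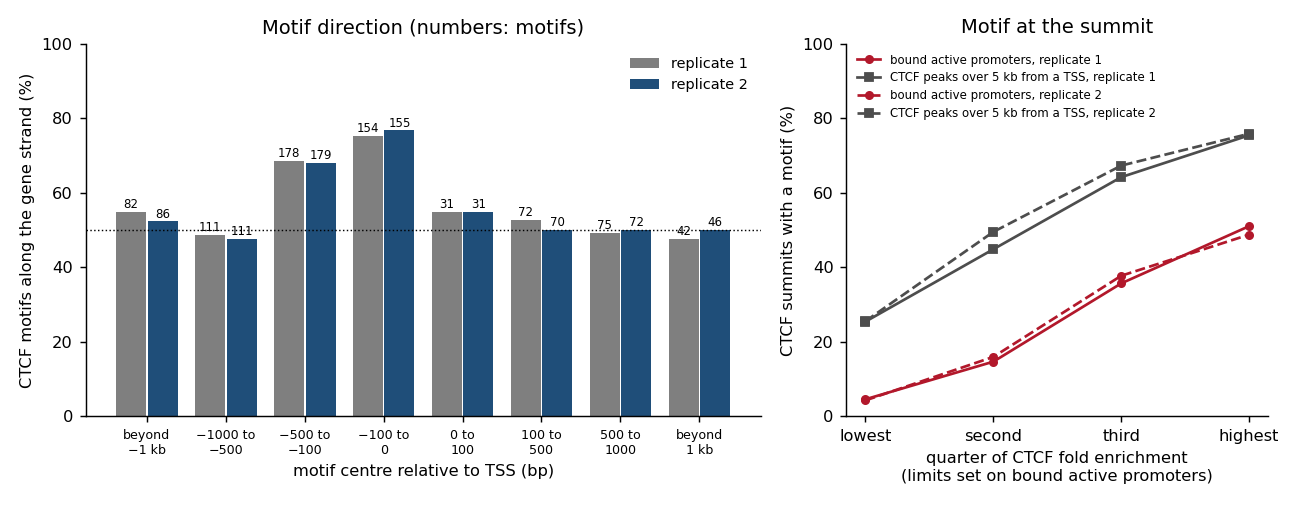
Left, share of CTCF motifs that read along the gene's strand (y axis, %) by the position of the motif centre relative to the TSS (x axis, bp) in replicates 1 (grey) and 2 (blue), with the number of motifs above each bar and a dotted line at equal shares. Right, share of CTCF summits with a motif (y axis, %) by group of CTCF fold enrichment (4 equal groups of promoters), for bound active promoters (red) and for distal CTCF peaks within the same fold limits (grey). The shares along the gene are highest in the 500 bp upstream of the TSS, and promoter sites lie below distal sites in each group of fold.

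The preference was as large without promoters that have a divergent neighbour or share their CTCF peak. A divergent neighbour is another gene that starts within 1 kb on the other strand, at or upstream of the TSS, and points away. Pairs that overlap at their starts, such as GSTCD and INTS12, were not counted as divergent. Among promoters without a divergent neighbour, 75.9% and 76.9% of motifs in the first 100 bp upstream read along the gene (of 141 and 143). Among promoters that share their CTCF peak with no other, 76.4% and 77.4% did (of 144 and 146). With the looser threshold of 1e-04, 76.4% and 76.6% of 296 and 303 motifs did. The letters alone, at promoters with no CTCF peak, gave a smaller share: in the first 100 bp upstream of comparison promoters, 91 of 158 matches at 1e-04 read along the gene, or 57.6%. Of all matches at 1e-04 in the same stretch of the bound promoters, 71.2% did (of 396). Between 100 and 500 bp upstream, however, such matches gave 58.8% at bound and 57.6% at comparison promoters, so that there the groups were close at the looser threshold. At 1e-05 the comparison promoters had 4 of 11 along the gene in the first 100 bp, and between 100 and 500 bp upstream 46.3% of 41, compared with 67.0% of 209 at bound promoters. At the 226 genes with CTCF but no histone mark, 12 of 28 motifs in the 500 bp upstream read along the gene in both replicates, or 42.9%, compared with 71.7% and 72.2% of 332 and 334 at the bound active promoters. In the first 100 bp upstream alone, it was 8 of 11, or 72.7%. That group is small, and the difference was not tested.

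Promoters whose upstream motif read along the gene also differed in their marks from those whose motif read against it. For motifs in the 500 bp upstream, H3K4me3 reached a median of 641 and 679 bp upstream of the TSS in the 238 and 241 promoters with the motif along the gene, compared with 869 and 901 bp in the 94 and 93 with the motif against it. Downstream, it reached 1926 and 2073 bp compared with 1691.5 and 1762 bp. H3K27ac gave the same order, with 624 and 634 bp compared with 777.5 and 769 bp upstream, and 1691 and 1686 bp compared with 1354 and 1377 bp downstream. The marks were thus shorter upstream and longer downstream where the motif pointed into the gene, in both replicates and for both marks. The replicates hold mostly the same sites, so that their likeness is not independent evidence. The groups also differed in position: 116 of 238 and 119 of 241 motifs along the gene lay in the first 100 bp upstream, compared with 38 of 94 and 36 of 93. Upstream marks were shorter with CTCF near the TSS, as given above, and the part of position was not tested. CTCF fold was close in the groups (27.9 and 33.7 compared with 26.7 and 33.1). A divergent neighbour was present at 10.5% and 9.96% of the former and 14.9% and 14.0% of the latter, and its part in the lengths was not tested.

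In other respects the bound promoters were close to the comparison promoters. Their median GC content was 61.9% compared with 61.1%, and their ratio of observed to expected CpG was 0.762 compared with 0.755. A divergent neighbour was present at 471 of 2809, or 16.8%, compared with 19.4% of the comparison promoters. The share of genes with such a neighbour fell from 18.7% and 19.1% in the lowest group of CTCF fold to 12.4% and 13.2% in the highest. The median gene length was 23902 bp compared with 26964 bp, but the mean had the opposite order, with 61166 bp at bound and 58494 bp at comparison genes. Other CTCF peaks between 2 and 50 kb away were as numerous, with means of 2.91 and 3.14 compared with 2.88 and 3.11 in replicates 1 and 2.

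CTCF was found at a smaller share of active promoters on the X chromosome than on any autosome. It was present at 56 of 369 active promoters on X, or 15.2%, compared with 24.8% over the autosomes, which ranged from 19.7% on chromosome 17 to 28.4% on chromosome 16. In each replicate alone the share on X was 16.1% and 20.6%, below the lowest autosomes, which had 19.9% and 25.5%. Distal CTCF peaks were also sparser on X, with 7.92 and 9.05 per Mb, compared with 10.3 and 11.6 on chromosome 11, the sparsest autosome. The part of the number of X chromosomes in these cells was not tested.

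**Figure D4:**
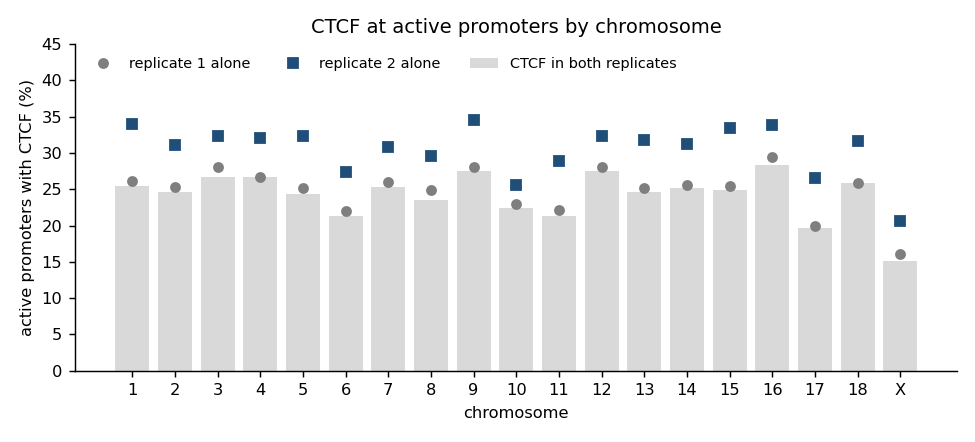
Share of active promoters with CTCF (y axis, %) on each chromosome (x axis), in both replicates (bars) and in each replicate alone (points). The X chromosome, with 15.2%, has the lowest value of each kind.

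The last question was which genes the set holds, from lists of pathways and gene families. Against the 24.5% of all active promoters, most lists were near that share, and with 6 to 78 active members, or 241 for zinc finger genes, differences of a few genes move them. Each list was matched by symbol, and its count covers only genes with both histone marks.

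Ribosomal protein genes of the cytosolic ribosome had CTCF at 28 of 78 promoters, or 35.9%. A motif lay at 11 of the 28 in each replicate. RPS29 had a fold of 56.7 and 62.7 at 583 and 585 bp upstream, RPS26 had 50.3 and 58.0 at 472 and 476 bp upstream, and RPL26 had 38.6 and 48.5 at 292 and 182 bp upstream. The count includes RPL3L, a paralog expressed mainly in muscle. Mitochondrial ribosomal proteins had a lower share, 15 of 72 or 20.8%. Of these, MRPL11 and MRPL34, whose sites are printed above, had 34.5 and 37.6 and 20.7 and 30.2.

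Mitochondrial aminoacyl-tRNA synthetases, which charge tRNAs for translation in mitochondria, had CTCF at 6 of 15 promoters, or 40%, among them SARS2 and YARS2. SARS2 had 36.9 and 50.6 at 337 and 327 bp downstream, and YARS2 had 29.3 and 40.8 at 472 and 468 bp upstream. Genes of oxidative phosphorylation had CTCF at 13 of 68, or 19.1%. NDUFC1, a subunit of complex I, had 41.9 and 39.4 at 48 and 52 bp upstream, and ATP5I, a subunit of the ATP synthase, had 31.4 and 34.0 at 98 and 92 bp upstream.

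Proteasome genes were at the background, with 11 of 45 or 24.4%. PSMC6 had 53.8 and 58.9 at 80 and 77 bp upstream. PSMB9, a subunit of the immunoproteasome, had 28.5 and 33.9 at 133 and 129 bp downstream, next to its divergent neighbour TAP1, a peptide transporter of antigen presentation. Translation initiation factors had 10 of 45, or 22.2%, and splicing factors 10 of 50, or 20%. Of the splicing factors, PRPF18 had 50.2 and 56.0 at 117 and 106 bp upstream, and SF3A3, a component of the U2 snRNP, had 38.2 and 48.0 at 47 and 49 bp upstream.

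Genes of the cell cycle and DNA replication had the lowest share of all lists, 8 of 61 or 13.1%. These 8 were GINS4, MCM3, CDC25B, CCNA2, TOP2A, RPA2, ORC5 and ORC2. GINS4, of the replicative helicase, had 37.9 and 46.3 at 164 and 174 bp upstream, MCM3, of the same helicase, had 16.5 and 31.3 at 473 and 457 bp upstream, and CCNA2, cyclin A2, had 16.6 and 18.8 at 400 and 432 bp upstream. CDK1, PCNA, CCNB1, CDC20, MCM2, MCM4, MCM6 and MCM7 were among the 48 with no CTCF peak in either replicate. DNA repair genes had 12 of 45, or 26.7%, with ERCC1, of nucleotide excision repair, at 46.3 and 58.4, and NBN, of double-strand break repair, at 29.5 and 36.4.

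**Figure D5:**
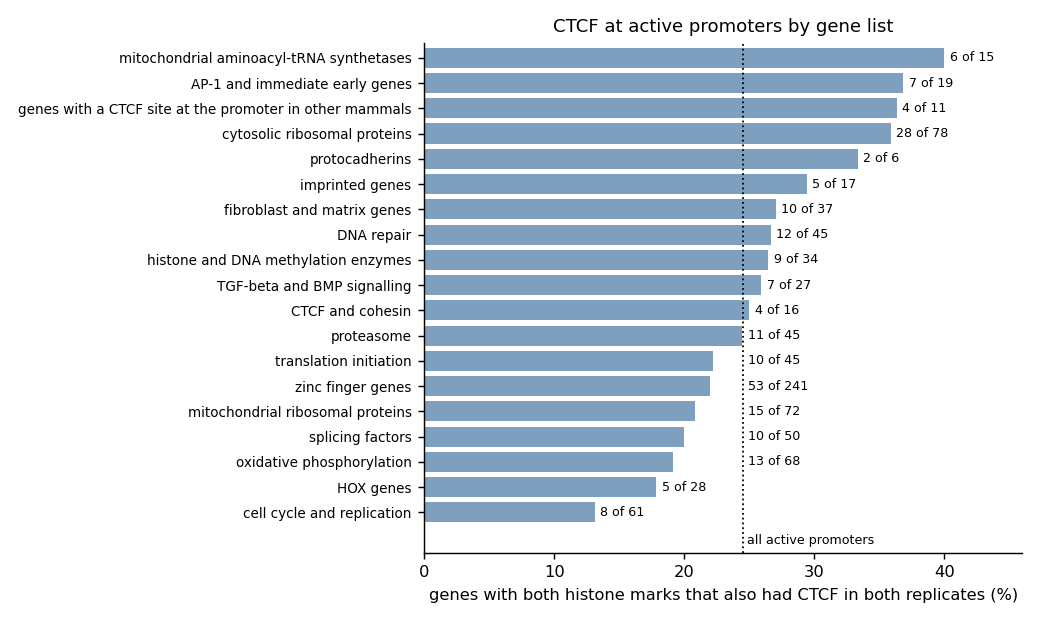
Share of active promoters with CTCF in both replicates (x axis, %) in each of 19 gene lists (y axis), with the counts beside the bars and a dotted line at the 24.5% of all active promoters. Mitochondrial aminoacyl-tRNA synthetases (40%) have the highest and genes of cell cycle and replication (13.1%) the lowest share.

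CTCF and its partners had CTCF at 4 of 16 promoters, or 25%, and none of the 4 had a motif at the summit that passed 1e-05. PDS5B was the strongest. NIPBL, which loads cohesin on DNA, had 25.6 and 33.6 at 765 and 754 bp upstream. ESCO2, which acetylates cohesin, had 30.1 and 26.4 at 206 and 216 bp downstream, and MAZ, a zinc finger factor, had 19.96 and 15.8 at 1086 and 1082 bp downstream. The cohesin subunits RAD21, SMC3, STAG1 and STAG2 had no CTCF peak within 1 kb.

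Enzymes that methylate or demethylate histones and DNA had 9 of 34, or 26.5%. KMT2B, an H3K4 methyltransferase, had 33.5 and 41.4 at 911 and 917 bp upstream, SETDB1, an H3K9 methyltransferase, had 29.6 and 44.99 at 308 and 279 bp upstream, and DNMT3A, a DNA methyltransferase, had 27.2 and 35.3 in an intron at 246 and 238 bp downstream. Zinc finger genes had 53 of 241, or 22.0%, and their sites were weak, with median folds of 10.8 and 14.8 compared with 17.0 and 21.3 over all bound promoters. The strongest was ZNF79, with 57.6 and 55.4 at 1155 and 1150 bp upstream.

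The lists of developmental and imprinted genes were short, and a few genes move their shares. HOX genes had 5 of 28, or 17.9%: HOXA5, HOXA6, HOXA10, HOXC5 and HOXC10, all in the A and C clusters. HOXA10 had 29.98 and 28.7 at 310 and 307 bp downstream, and HOXC10 had 21.5 and 29.3 at 133 and 134 bp upstream. Protocadherins had 2 of 6, or 33.3%, which were PCDH1 and PCDH7. Imprinted genes, which are expressed from 1 parental copy, had 5 of 17, or 29.4%. CDKN1C, an inhibitor of cyclin-dependent kinases, had 17.99 and 19.3 at 195 and 198 bp upstream. PEG10 and SGCE, a divergent pair, share a peak of 10.8 and 13.0, and DIRAS3 had 15.8 and 21.4. None of the 5 had a motif at the summit. The peak lists do not tell the parental copies apart.

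Genes of fibroblasts and their matrix had CTCF at 10 of 37 promoters, or 27.03%. THBS1, a matrix glycoprotein, had 33.1 and 44.5 at 747 and 769 bp upstream. COL1A1 and COL1A2, the chains of type I collagen, had 23.9 and 36.8 at 1120 and 1099 bp downstream and 28.8 and 40.3 at 710 and 677 bp downstream, both in introns. TAGLN, an actin-binding protein, had 22.5 and 34.2 at 1097 and 1101 bp upstream. COL1A1 and COL1A2 lay in broad marks: H3K4me3 covered 8046 and 8111 bp at COL1A1 and 7914 and 7835 bp at COL1A2.

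Genes of TGF-beta and BMP signalling had 7 of 27, or 25.9%, with median folds of 30.2 and 34.9 compared with 17.0 and 21.3 over all bound promoters. LTBP1, LTBP2 and LTBP4, which bind latent TGF-beta in the matrix, had 45.6 and 63.0, 35.8 and 34.9, and 32.7 and 36.6. TGFB1, a ligand, had 30.2 and 41.4 at 658 and 656 bp upstream, with 2 CTCF peaks in both replicates. Immediate early genes, which respond to growth factors within a short time, had 7 of 19, or 36.8%, at low fold, with medians of 7.98 and 13.7. DUSP1, a phosphatase of MAP kinases, had 27.6 and 29.5, SRF had 19.3 and 23.5, EGR1 had 7.98 and 13.7 and MYC had 5.93 and 12.1 at 198 and 207 bp downstream. FOS, JUNB and FOSL1 had no CTCF peak within 1 kb. Of 11 genes known to bind CTCF at the promoter in other mammals, 4 were in the set, among them APP, MYC and PIM1, a kinase, with 7.04 and 7.24. BRCA1, PLK1 and RB1 were in the comparison group.

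The limit of 1 kb cut through a continuous distribution. The larger of a gene's 2 distances to CTCF was between 900 and 1000 bp at 97 active promoters and between 1000 and 1100 bp at 101, while at 1319 the TSS lay inside a CTCF peak in both replicates. Just inside were ARHGAP21 (968 and 1000 bp), OSBPL3 (1000 and 942 bp) and SYNPO2, whose distances were 1000 and 0 bp. Just outside were METTL1 (1001 and 884 bp), GCAT (1003 and 959 bp) and LOC110257285 (1003 and 790 bp).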

How the data were processed

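ChIP-seq of H3K4me3, H3K27ac and CTCF in PEFs gave 1 deposited narrow peak list for each of 6 libraries. Per the submitters' processing notes, the authors used Bowtie2, MACS2 and the Sscrofa 11.1 assembly. In the deposited lists each peak has a score (not used), its fold, which is a ratio to the control, and p-values and q-values written as −log10. Peaks with higher q-values than the limit in the methods are among them and were kept, such as that of RUSC2 in replicate 2, with a −log10 q of 1.63. The lists give no counts, so the depth behind a peak is unknown and no counting interval was computed. Input libraries were not analysed here.

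Peaks were read on Sscrofa11.1 with RefSeq genes; no peak ended beyond its chromosome. The TSS was the 5′ end of the gene, so that peaks called distal can lie at other mRNA starts. Distance was measured to the nearest peak edge, and the highest CTCF peak within 1 kb was used. Covered length was counted within 5 kb of the TSS. A motif of 19 bp was learned by expectation maximisation from the sequence within 50 bp of the summits of the 600 strongest distal CTCF peaks of replicate 1, with sequence 1 kb away as background. It was searched within 100 bp of each summit on both strands, with exact score thresholds from the base composition of comparison promoters. The motif search and the counting of peaks were tested on simulated data. Python 3.11.15, numpy 2.4.6, pandas 2.3.3 and pysam 0.24.0 were used.

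The members and gene lists were chosen with earlier results of these data known. Genes were named by rule: the 10 highest and 5 lowest by mean CTCF fold, the 5 with the longest H3K4me3, up to 5 with the most CTCF peaks, up to 4 of highest fold in each list, and 3 on each side of the 1 kb limit. ERLIN2 and TBC1D4 were added for their sequence. Other genes named as having or lacking CTCF were picked after their values were seen. No test was run, since 2 replicates cannot give an exact p below 0.5.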

Additional observations from a re-analysis of the deposited data

How the results depend on the processing

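No paired analysis was possible because no comparison is between groups of samples: bound and comparison promoters are measured in the same libraries, so each difference is already taken within a library. Each alternative changed 1 choice: a limit of 500 bp or 2 kb, peaks with a −log10 q of at least 5, distance to the summit, the 5′ end of any mRNA, a motif p of 1e-04, or 1 replicate alone. Promoters without a divergent neighbour, and the alternatives for motif direction and chromosome X, were added after seeing the data. The cause of any change was not tested.

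The 2809 promoters became 1731 by summit distance and 2909 to 3641 with 1 replicate. The share of active promoters bound by CTCF was 19.912% at 500 bp, 30.688% at 2 kb and 25.143% to 30.851% with 1 replicate. Fold, as the mean of the replicates' medians (19.14), stayed within its SD of 3.011 under every alternative run, but that SD is the spread between the replicates. With promoters chosen from 1 replicate alone, the median in replicate 2 went from 21.3 to 16.161. In replicate 1 it went from 17.0 to 16.663. Summits upstream made up 61.194% at 500 bp, 56.197% at 2 kb, 58.577% with the q limit, 63.114% by summit, 59.668% by mRNA, 58.148% without divergent neighbours and 54.024% to 57.271% with 1 replicate.

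The H3K4me3 length difference was -132.5 bp at 500 bp, 180 bp at 2 kb, -93.5 bp by summit, 1 bp by mRNA and -4 to 41 bp with 1 replicate. That of H3K27ac was -77, 290.5, -40 and 69 bp in the same order and 45 to 137 bp with 1 replicate. Neither length difference thus kept its sign.

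The motif share was 25.135% at 500 bp, 30.185% at 2 kb, 27.384% with the q limit, 25.246% by summit, 27.986% by mRNA, 56.23% at 1e-04, 27.374% without divergent neighbours and 22.494% to 26.195% with 1 replicate. The divergent share stayed lower at bound promoters throughout, by -2.7468, -2.6849, -2.7799, -4.1905 and -2.7148 percentage points in the first 5 settings and -2.3769 to -2.3562 with 1 replicate. Motif direction in the first 100 bp upstream was 77.402% at 2 kb and 80.396% by summit. The X share was 19.948% at 2 kb, 19.747% by mRNA and 16.086% to 20.58% with 1 replicate. Except with 1 replicate, autosomal shares were not computed under the alternatives, so whether X stayed the lowest there was not tested.

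Peak lists hold no reads, so weak binding below the calling threshold was not detectable, and a gene without a peak is not shown to lack CTCF. The number of peaks differs between replicates, and depth per library is unknown.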
